A study of Mus musculus with 26 samples.

Results

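Imprinted genes are the subject here: 10 genes, H19, Dlk1, Meg3, Peg3, Peg10, Mest, Grb10, Plagl1, Nnat and Phlda2, followed in mouse J1 embryonic stem cells after knockdown of Mettl3 or Mettl14. The genes were chosen by name. For 9 of the 10 the arrays carried a probe set listed with that symbol alone, and the brightest such probe set stood for the gene. All 9 passed a filter that left 14787 of 22180 genes for testing. The only probe set listed with H19 is also listed with Mir675, the microRNA gene inside H19, so it is written H19/Mir675 and kept outside the 9. The 26 arrays formed 13 groups of 2. In a time course of 18 arrays, cells with a scramble control, a Mettl14 knockdown or a Mettl3 knockdown were labelled 0 h, 4 h or 8 h. In a repeat set of 8 arrays, all labelled 0 h, each knockdown had a scramble control of its own. The cells of all groups grew with serum and leukaemia inhibitory factor on irradiated embryonic fibroblasts, which serve as a feeder layer. Each knockdown array is described as carrying short hairpin RNA, for which the growth protocol gives lentiviral delivery, whereas the treatment protocol given for the same arrays is a lipid transfection of small interfering RNA. What was done during the 4 h and 8 h is not given in the sources used here. For the second replicate of both repeat-set controls, a free-text note mentions 4 h whereas the other fields give 0 h, and these arrays were used as 0 h.

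An imprinted gene is read mainly from the copy inherited from a single parent. DNA methylation laid down in the egg or sperm at control regions marks the copies, and maintenance factors such as the zinc finger protein ZFP57, its partner TRIM28 and the methyltransferase DNMT1 keep the mark through cell division. Paternally expressed members are Plagl1, Peg10, Nnat, Dlk1, Peg3 and Mest. Maternally expressed members are H19, Meg3 and Phlda2, as well as Grb10 in most tissues. METTL3 and METTL14 form the enzyme that places N6-methyladenosine on RNA. The arrays measure total signal of both parental copies, so they do not report from which copy a transcript came.

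Sequences of 3 promoters are shown because Plagl1, Nnat and Phlda2 were higher in both knockdowns of both sets at 0 h. The hexamer that ZFP57 recognises when it is methylated is present in only some of them. Peg10 was higher in both knockdowns of both sets too, but no promoter window was available for it. Each window covers 250 bases before to 50 bases after an annotated start in RefSeq on build GRCm38.p6, and capitals mark the hexamer TGCCGC, or its reverse complement GCGGCA. Plagl1 lies at chr10:13090582-13090881 on the + strand, Nnat at chr2:157559828-157560127 on the + strand and Phlda2 at chr7:143502475-143502774 on the - strand.
Plagl1: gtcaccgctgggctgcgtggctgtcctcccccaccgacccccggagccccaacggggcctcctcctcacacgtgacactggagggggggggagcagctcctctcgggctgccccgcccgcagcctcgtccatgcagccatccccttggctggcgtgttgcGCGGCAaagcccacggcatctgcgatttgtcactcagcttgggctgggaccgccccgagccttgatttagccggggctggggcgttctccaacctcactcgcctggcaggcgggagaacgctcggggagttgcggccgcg
Nnat: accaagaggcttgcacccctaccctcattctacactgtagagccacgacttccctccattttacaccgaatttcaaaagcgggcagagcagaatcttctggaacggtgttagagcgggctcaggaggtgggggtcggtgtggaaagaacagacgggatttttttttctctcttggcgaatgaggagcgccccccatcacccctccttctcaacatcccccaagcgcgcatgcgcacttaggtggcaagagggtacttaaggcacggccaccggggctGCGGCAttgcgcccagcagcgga
Phlda2: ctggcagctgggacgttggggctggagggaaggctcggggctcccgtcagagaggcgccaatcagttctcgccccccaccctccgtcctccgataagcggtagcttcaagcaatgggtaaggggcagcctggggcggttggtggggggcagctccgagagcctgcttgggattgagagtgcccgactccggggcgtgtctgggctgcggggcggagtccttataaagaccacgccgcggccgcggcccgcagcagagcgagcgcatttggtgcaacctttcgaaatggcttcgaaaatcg
The Plagl1 and Nnat windows each held 1 copy of the hexamer, and the Phlda2 window held none. Among 32851 promoter windows of the same length, 11.6% held it on either strand. RefSeq gave 12 windows for 8 of the members, and none for Peg10 or H19. The hexamer was also in both overlapping windows of a second Mest start with 2 copies each, in 1 of the Grb10 windows and in 1 of the Meg3 windows, and not in those of Peg3 and Dlk1. CpG dinucleotides numbered 26 in the Plagl1 window, 17 in the Nnat window and 26 in the Phlda2 window, against a median of 7 over all windows. The Phlda2 window also held 1 copy of TATAAA, found in 13.6% of all windows. The Phlda2 and Plagl1 windows each held 2 copies of GGGCGG, found in 35.7%, with both strands counted. A match of letters is a description of these windows, and none of the arrays measured methylation or binding there.

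The H19 transcript carries the hairpin of miR-675, whose mature forms from RefSeq are given because the H19/Mir675 probe set is the member that differed most between the sets. The seed, bases 2 to 8, is in capitals. The hairpin arms lie at chr7:142577112-142577133 and chr7:142577078-142577099 on the - strand.
mmu-miR-675-5p: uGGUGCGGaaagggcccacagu
mmu-miR-675-3p: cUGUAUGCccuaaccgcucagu
The probe set is listed with both genes. Per the labels' protocols polyadenylated RNA was selected before labelling, and the level of the mature microRNA was not measured.

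Values are log2 signals after RMA normalization, on which a difference of 1 is a doubling. The arrays of a group correlated at r between 0.987 and 0.993. The Mettl14 signal fell in its knockdown to 30.9% of scramble at 0 h of the time course and to 39% in the repeat set. The only probe set listed with Mettl3, shared with Tox4, fell in the Mettl3 knockdown to 26.9% at 0 h of the time course. In the Mettl14 knockdown the same probe set also fell, to 70.5% of scramble at 0 h. Among pluripotency genes, Nanog ranged from 12.71 to 12.86 and Sox2 from 9.65 to 12.54 over the scramble arrays. Feeder fibroblast markers were measured too: of 26 listed genes, 25 had a probe set and 21 were tested, while Lum, Postn, Lox and Fap were among the dimmest genes left out. In these bulk samples, fewer cells of a type and less RNA per cell cannot be told apart. The titles call the replicates biological without saying that they came from separate cultures, so p-values measure the spread between these arrays, which may be technical.

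In scramble cells the members had levels well spread over the arrays' range, and 7 of 9 differed at 0 h between the time course and the repeat set, where 63% of all genes did. Nnat, an endoplasmic reticulum proteolipid, stood at 8.58 and 9.12 at 0 h of the time course. In the repeat set its controls gave 9.58 and 9.59 beside the Mettl14 knockdown and 9.49 and 9.61 beside the Mettl3 knockdown. All 4 repeat-set controls were above all 6 time-course controls for Nnat, by 0.71 ± 0.10 at 0 h (adjusted p = 1.44e-05). That difference rests on the brighter of its probe sets. The dimmer one was lower in the repeat-set controls (-0.60, adjusted p = 0.0158), so the probe sets differ in sign. The mean of both probe sets differed by 0.06 (adjusted p = 0.697). Mest, an alpha/beta-hydrolase family protein, went the other way, with 11.54 and 11.57 in the time course at 0 h against 10.89 to 10.99 in the repeat set, a difference of -0.61 ± 0.04 (adjusted p = 1.14e-09). Phlda2, a pleckstrin-homology protein that restrains placental growth, was higher in the repeat-set controls by 0.43 ± 0.05 (adjusted p = 3.97e-06), with 8.83 and 8.96 in the time course at 0 h against 9.29 to 9.35. The Meg3 probe set was lower there by 0.54 on the log2 scale (adjusted p = 2.91e-05), while the one listed for Meg3 and Mir770 was higher by 0.63 (adjusted p = 0.000128) and the one listed for Meg3 and Mir1906 differed by 0.04 (adjusted p = 0.875).

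Among the 7 members that differed between the controls of the sets, the repeat set was higher in 3 members and in 17.3% of all genes, and lower in 4 members and in 45.7% of all genes, with a median over all genes of -0.15. Plagl1 was among the higher ones by 0.17 ± 0.06, a call lost without replicate 1 of the time-course scramble at 0 h (0.14, adjusted p = 0.173) or replicate 1 of the repeat-set scramble for Mettl14 (0.11, adjusted p = 0.105). Peg10 and Grb10 were lower by 0.21 and 0.15 with adjusted p = 0.00136 and 0.00391. Dlk1 and Peg3 differed by -0.08 each and did not pass. Between the controls that belong to the different knockdowns of the repeat set, 0 of 9 members passed with limma, where 0.67% of all genes did, and 3 (Meg3, Peg3 and Grb10) had an unadjusted p under 0.05. The set and anything handled along with it cannot be told apart.

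In some members neighbouring control groups overlapped. Plagl1 controls of the time course overlapped with each other at all 3 times, from 7.05 to 7.20. Mest and Grb10 were each in the order 8 h, 4 h and 0 h of the time course and then the repeat-set controls, with no overlap between any neighbouring groups. Dlk1, a membrane ligand of the Delta family, overlapped between 8 h and 4 h and between 0 h and the repeat-set control beside Mettl14, whose arrays gave 7.26 and 7.29. The Dlk1 controls of the time course had wide gaps between replicates, the largest at 4 h, where the arrays gave 7.44 and 7.83.

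**Figure D1:**
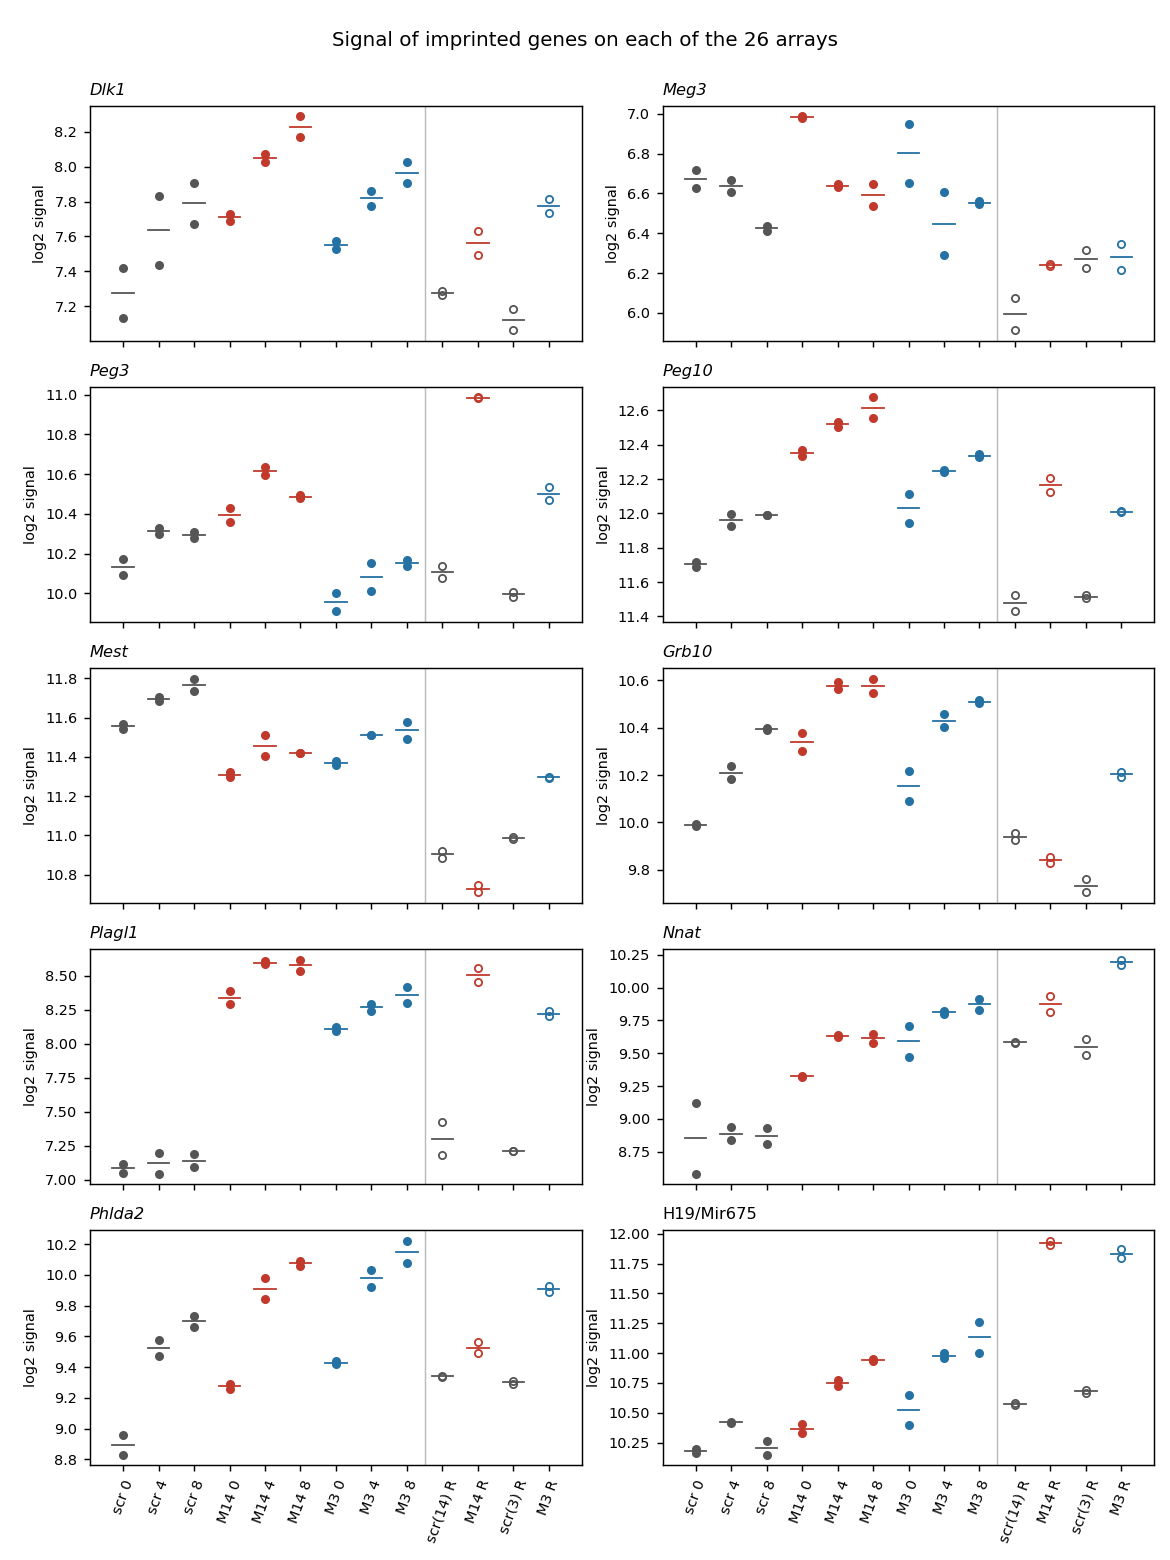
Log2 signal of the 9 imprinted genes and of the H19/Mir675 probe set on each of 26 arrays, with points for arrays and bars for group means; filled points are the time course (scramble, scr; Mettl14 knockdown, M14; Mettl3 knockdown, M3; at 0, 4 and 8 h) and open points the repeat set (R; scr(14) and scr(3) are the controls of each knockdown). The vertical scale differs between panels. Plagl1 lies between 7.05 and 7.42 in every scramble array and between 8.09 and 8.62 in every knockdown array.

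Plagl1, a zinc finger transcription factor, gave the largest and steadiest knockdown response among the 9. At 0 h of the time course its arrays read 7.05 and 7.12 in scramble, 8.29 and 8.38 in the Mettl14 knockdown and 8.09 and 8.13 in the Mettl3 knockdown. In the repeat set the controls read 7.18 and 7.42 beside Mettl14 and 7.21 and 7.21 beside Mettl3, and the knockdowns 8.45 and 8.56 for Mettl14 and 8.20 and 8.24 for Mettl3. The lowest knockdown array lay above the highest scramble array of its set by more than the widest gap between Plagl1 replicates. Mettl14 knockdown raised Plagl1 by 1.25 ± 0.07 in the time course (2.39-fold, adjusted p = 3.43e-08) and by 1.20 ± 0.08 in the repeat set (2.30-fold, adjusted p = 9.85e-05). The Mettl3 knockdown raised it by 1.02 ± 0.07 (adjusted p = 2.06e-07) and 1.01 ± 0.08 (adjusted p = 0.000217). At 4 h and 8 h the rises were 1.47 and 1.44 for Mettl14 and 1.14 and 1.22 for Mettl3. A dim second Plagl1 probe set, with a mean signal of 2.49, passed in the Mettl3 knockdown of the repeat set alone, at 0.79.

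Peg10, a retrotransposon-derived gene needed for the placenta, also rose in both knockdowns of both sets. Time-course arrays at 0 h read 11.69 and 11.72 in scramble, 12.33 and 12.37 with Mettl14 knocked down and 11.95 and 12.11 with Mettl3 knocked down. Every knockdown array of each set was above every scramble array of that set at 0 h. Over all genes, 67.7% to 69.3% did not overlap between a knockdown and its scramble at 0 h. The Mettl14 knockdown raised Peg10 by 0.65 ± 0.06 in the time course (adjusted p = 4.11e-06) and 0.69 ± 0.05 in the repeat set (adjusted p = 0.000142). For Mettl3 the rises were 0.33 ± 0.06 (adjusted p = 0.00102) and 0.50 ± 0.05 (adjusted p = 0.000575). Sgce, the paternally expressed gene next to Peg10 in RefSeq's order, rose by 0.95 ± 0.11 and 0.79 ± 0.06 with Mettl14 and by 0.97 ± 0.11 and 0.68 ± 0.06 with Mettl3, in the time course and the repeat set respectively. Casd1, the gene after Sgce on that side, fell in all 4 (-0.61 and -0.21 with Mettl14, -0.74 and -0.34 with Mettl3), and on the other side Ppp1r9a and Pon3 rose in none, Ppp1r9a being lower with Mettl14 in the repeat set (-0.14, adjusted p = 0.0455).

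Nnat, by its brighter probe set, was higher in every knockdown group than in its own controls, but the size at 0 h of the time course hung on the control. Its scramble arrays of 8.58 and 9.12 were 0.54 apart, the widest replicate gap of any member. The knockdown arrays read 9.32 and 9.33 for Mettl14 and 9.47 and 9.71 for Mettl3. The rise was 0.47 ± 0.13 with Mettl14 (adjusted p = 0.0131) and 0.74 ± 0.13 with Mettl3 (adjusted p = 0.000804). Without replicate 2 of that control the first became 0.20 (adjusted p = 0.133), and without replicate 2 of the Mettl14 knockdown it was 0.47 (adjusted p = 0.0553). At 4 h and 8 h, where the scramble arrays lay between 8.81 and 8.94, the rises were 0.74 and 0.74 with Mettl14 and 0.92 and 1.00 with Mettl3. Nnat rose in the repeat set by 0.29 ± 0.06 with Mettl14 (adjusted p = 0.0104) and 0.65 ± 0.06 with Mettl3 (adjusted p = 0.000407), and the first did not pass without replicate 1 of its control (0.29, adjusted p = 0.051) or replicate 2 of the knockdown (0.23, adjusted p = 0.0574). With the mean of its probe sets, the time-course values at 0 h were 0.24 and 0.42 with adjusted p = 0.275 and 0.0557. The dimmer probe set, with a mean signal of 6.06, did not pass with Mettl14 at 0 h of the time course (-0.00067) or in the repeat set (0.07). With Mettl3 it read 0.10, which did not pass, and 0.61 (adjusted p = 0.000489). At 8 h it was higher by 0.77 with Mettl14 (adjusted p = 0.0326) and 1.28 with Mettl3 (adjusted p = 0.00196).

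Dlk1 rose with Mettl14 in both sets and passed with Mettl3 in the repeat set alone. The Mettl14 rise was 0.43 ± 0.12 in the time course at 0 h (adjusted p = 0.0145), where scramble read 7.14 and 7.42 and the knockdown 7.69 and 7.73, and 0.29 ± 0.07 in the repeat set (adjusted p = 0.015). Without replicate 1 of the time-course control the first was 0.29 (adjusted p = 0.149), and without replicate 2 of the knockdown 0.41 (adjusted p = 0.0699). Leaving out replicate 1 or 2 of the repeat-set control or replicate 2 of the knockdown gave 0.30, 0.27 and 0.22, with adjusted p = 0.0567, 0.0722 and 0.079. With Mettl3 the values were 0.27 ± 0.12 (adjusted p = 0.103, or 0.0436 at 0.42 without replicate 2 of the control) and 0.65 ± 0.07 (adjusted p = 0.000539). The repeat-set Mettl3 arrays of 7.74 and 7.82 were clear of their controls at 7.06 and 7.18. At 4 h and 8 h the Mettl14 rises were 0.41 and 0.44, which without replicate 1 of scramble at those times were 0.22 (adjusted p = 0.21) and 0.32 (adjusted p = 0.107). Leaving out replicate 1 or 2 of the knockdown at 4 h, or replicate 1 at 8 h, gave 0.39, 0.44 and 0.38 with adjusted p = 0.0854, 0.0563 and 0.0753.

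Peg3, a large zinc finger protein, separated the knockdowns in the time course. At 0 h its arrays read 10.09 and 10.17 in scramble, 10.36 and 10.43 with Mettl14 knocked down and 9.91 and 10.003 with Mettl3 knocked down. It rose with Mettl14 by 0.26 ± 0.06 (adjusted p = 0.00311) and fell with Mettl3 by 0.18 (standard error 0.06, adjusted p = 0.0308). The fall did not pass without replicate 1 of scramble (-0.14, adjusted p = 0.193) or replicate 1 of the Mettl3 knockdown (-0.13, adjusted p = 0.198). Both knockdowns of the repeat set raised it: Mettl14 to 10.98 and 10.99 from 10.08 and 10.14, by 0.88 ± 0.05 (adjusted p = 4.29e-05), and Mettl3 to 10.47 and 10.54 from 9.98 and 10.01, by 0.51 ± 0.05 (adjusted p = 0.000337). The probe set shared by Peg3 and its antisense transcript Peg3os rose by 0.72 and 0.43 in the repeat set and did not pass at 0 h of the time course (0.04 and -0.37).

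Mest was the member that fell most often. It fell with Mettl14 by 0.25 in the time course at 0 h (standard error 0.05, adjusted p = 0.00203) and by 0.17 in the repeat set (standard error 0.04, adjusted p = 0.0149), and with Mettl3 by 0.19 in the time course (standard error 0.05, adjusted p = 0.0112). With Mettl3 in the repeat set it rose by 0.31 ± 0.04 (adjusted p = 0.00153), from 10.98 and 10.99 to 11.29 and 11.30. The Mettl14 fall of the repeat set did not pass without replicate 2 of its control (-0.16, adjusted p = 0.0765) or replicate 1 of the knockdown (-0.15, adjusted p = 0.0768), and the Mettl3 fall of the time course did not pass without replicate 1 of scramble (-0.18, adjusted p = 0.0637) or replicate 2 of the knockdown (-0.18, adjusted p = 0.0556). Copg2, which follows Mest in RefSeq's order, fell by 0.61 and 0.60 with Mettl14 and Mettl3 in the time course, and in the repeat set changed by -0.13 with Mettl14, which did not pass, and -0.31 with Mettl3, which did.

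Among maternally expressed members, H19/Mir675 showed the largest rise of the repeat set. There its arrays went from 10.56 and 10.58 to 11.90 and 11.94 with Mettl14, by 1.35 ± 0.05 (2.55-fold, adjusted p = 1.95e-05), and from 10.67 and 10.69 to 11.79 and 11.87 with Mettl3, by 1.15 ± 0.05 (2.22-fold, adjusted p = 3.75e-05). At 0 h of the time course scramble read 10.16 and 10.20, the Mettl14 knockdown 10.33 and 10.40 and the Mettl3 knockdown 10.40 and 10.65. The changes there were 0.19 ± 0.09 for Mettl14 (adjusted p = 0.125) and 0.34 ± 0.09 for Mettl3 (adjusted p = 0.00906), the latter lost without replicate 1 of the knockdown (0.22, adjusted p = 0.107) or replicate 2 of scramble (0.32, adjusted p = 0.0537). Igf2, the paternally expressed growth factor gene near H19, rose by 0.72 ± 0.10 and 1.45 ± 0.05 with Mettl14 and by 0.67 ± 0.10 and 1.16 ± 0.05 with Mettl3, in the time course and the repeat set.

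Phlda2 rose in all 4 comparisons at 0 h. In the time course its arrays went from 8.83 and 8.96 to 9.26 and 9.29 with Mettl14, by 0.38 ± 0.07 (adjusted p = 0.00104), and to 9.42 and 9.44 with Mettl3, by 0.53 ± 0.07 (adjusted p = 8.84e-05). The repeat-set rises were 0.18 ± 0.04 with Mettl14 (adjusted p = 0.0167) and 0.61 ± 0.04 with Mettl3 (adjusted p = 0.000159). The smallest of these, Mettl14 in the repeat set, did not pass without replicate 1 or 2 of its control (0.18 and 0.19, adjusted p = 0.0711 and 0.065) or replicate 2 of the knockdown (0.15, adjusted p = 0.0885), nor with an equal median of long-lived transcripts on every array (0.13, adjusted p = 0.109). The neighbours of Phlda2 in RefSeq's order, Slc22a18 and Nap1l4, changed by -0.25 and 0.06 with Mettl14 in the time course and did not pass. Slc22a18 fell by 0.25 with Mettl14 in the repeat set (adjusted p = 0.0171). Cdkn1c, beyond Slc22a18, passed in none of the 4. Cars, beyond Nap1l4, fell in all 4 (-0.85 and -0.45 with Mettl14, -0.92 and -0.19 with Mettl3).

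Grb10, an adaptor that dampens insulin and insulin-like growth factor receptor signalling, rose with Mettl14 in the time course by 0.35 ± 0.05 (adjusted p = 0.000231), from 9.98 and 9.99 to 10.30 and 10.38. Repeat-set Mettl14 arrays of 9.83 and 9.85 lay below their controls of 9.92 and 9.96, a change of -0.10 ± 0.04 that did not pass (adjusted p = 0.117). With Mettl3 it rose by 0.17 ± 0.05 in the time course (adjusted p = 0.0287) and by 0.47 ± 0.04 in the repeat set (adjusted p = 0.00035). The first of these did not pass without replicate 1 of the knockdown (0.10, adjusted p = 0.233) or replicate 1 or 2 of scramble (0.16 and 0.17, adjusted p = 0.108 and 0.0898). Of the tested genes next to Grb10 in RefSeq's order, Cobl on one side and Ddc, the second on the other, fell with both knockdowns in both sets, Cobl by 0.96 and 1.28 with Mettl14 and 1.00 and 1.10 with Mettl3. The nearer gene on the Ddc side, 1700042O10Rik, fell in the repeat set (-1.30 and -0.66) and did not pass in the time course (0.11 and -0.12), and Vstm2a, the second on the Cobl side, passed only with Mettl3 in the repeat set, as higher (0.27, adjusted p = 0.0485).

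The Meg3 probe set, dimmest of the 9 with a mean of 6.50, rose with Mettl14 by 0.31 ± 0.10 in the time course at 0 h (adjusted p = 0.0283) and 0.25 ± 0.07 in the repeat set (adjusted p = 0.0348). Neither call held in most fits that left out a single array: the time-course value did not pass without any of its 4 arrays (0.27 to 0.36, adjusted p from 0.0556 to 0.148), and the repeat-set value did not pass without replicate 2 of its control (0.17, adjusted p = 0.167) or replicate 1 or 2 of the knockdown (0.24 and 0.25, adjusted p = 0.12 and 0.109). With Mettl3 the values were 0.13 and 0.01 and did not pass. Brighter probe sets that list Meg3 with Mir770 or with Mir1906 did not pass at 0 h of the time course and fell with Mettl14 in the repeat set, by 0.18 and 0.24, so probe sets of Meg3 differ in sign there.

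Counted together at 0 h of the time course, 9 of 9 members passed with Mettl14, where 39.5% of all genes tested passed: 8 were higher (19.4% of all genes) and 1 lower (20.1%). With Mettl3, 7 of 9 passed against 37.8% of all genes, 5 higher (19.3%) and 2 lower (18.6%). The repeat set had 8 of 9 with Mettl14 against 36.2%, 7 higher (19.4%) and 1 lower (16.9%), and 8 of 9 with Mettl3 against 35.3%, 8 higher (17.9%) and 0 lower (17.4%). The member median was 0.38 and 0.27 in the time course and 0.29 and 0.51 in the repeat set, for Mettl14 and Mettl3, beside medians over all genes from -0.0035 to 0.0039. At 4 h, 8 passed with Mettl14 against 39.5%, 7 higher (20%) and 1 lower (19.5%), and 7 with Mettl3 against 37.8%, 5 higher (19.4%) and 2 lower (18.4%). At 8 h, 8 passed with Mettl14 against 43.6%, 7 higher (23.8%) and 1 lower (19.8%), and 5 with Mettl3 against 42.8%, 4 higher (23.8%) and 1 lower (19%). Both time-course knockdowns were set against the same scramble arrays. The 9 of 9 at 0 h with Mettl14 include Meg3, Dlk1 and Nnat, whose calls there depended on single arrays, as given for each above. The repeat-set count for Mettl14 was lower without both controls noted as 4 h, either control array or replicate 2 of the knockdown. The time-course counts at 0 h for Mettl3 and at 8 h for Mettl14 were lower without replicate 1 of scramble. These fits leave 1 array in a group, and the share of all genes passing in them was not computed. A general loss of calls therefore cannot be told apart from a loss in the members.

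Markers of feeder fibroblasts and of other cell types also differed between knockdown and scramble, in differing directions. The summed signal of the 21 tested markers was 11.70 to 11.73 on the log2 scale in scramble at 0 h of the time course, 12.73 to 12.75 with Mettl14 knocked down and 12.75 to 12.77 with Mettl3 knocked down. For the repeat set it was 12.56 to 12.57 against 12.86 to 12.90 for Mettl14 and 12.39 to 12.40 against 12.77 to 12.78 for Mettl3. Each sum adds linear signal before taking log2, so it follows the brightest genes of a list. The median change of the 21 was 0.33 in the time course and 0.03 in the repeat set with Mettl14. With Mettl3 it was 0.28 and 0.22. Of the 21, 9 were higher and 1 lower with Mettl14 in the time course, and 6 higher and 0 lower in the repeat set. With Mettl3, 8 were higher and 2 lower, then 6 and 1. Tagln, a smooth muscle and fibroblast actin-binding protein, rose by 2.22 with Mettl14 and 2.47 with Mettl3 in the time course and by 0.83 and 0.63 in the repeat set. Of the 8 collagen genes among them, 2 were higher with Mettl14 and 2 with Mettl3 in the time course, 1 and 1 in the repeat set, and Col1a2 and Col3a1 did not pass in any of the 4. Of 23 tested pluripotency genes, 17 and 19 were lower in the time course with Mettl14 and Mettl3, and 20 and 19 in the repeat set. Trophoblast genes had a summed signal of 12.06 to 12.10 in scramble at 0 h of the time course, 13.39 to 13.40 with Mettl14 knocked down and 13.51 to 13.55 with Mettl3 knocked down. In the repeat set it was 12.61 to 12.64 against 13.76 to 13.77 for Mettl14 and 12.48 to 12.52 against 13.28 to 13.29 for Mettl3. Of 16 tested trophoblast genes, 7 were higher and 4 lower with Mettl14 in the time course and 12 and 1 in the repeat set, and with Mettl3 7 and 3, then 8 and 1. Of 20 tested endoderm genes, 8 were higher and 2 lower with Mettl14 in the time course and 7 and 3 in the repeat set, and with Mettl3 11 and 2, then 9 and 3. Over all genes, 17.9% to 19.4% were higher and 16.9% to 20.1% lower in these comparisons. Mesoderm genes had a summed signal of 11.92 to 11.95 in scramble at 0 h of the time course. It was 11.26 to 11.29 with Mettl14 knocked down and 11.39 to 11.415 with Mettl3 knocked down. In the repeat set the mesoderm sum was 11.13 to 11.17 against 11.24 to 11.30 for Mettl14. For Mettl3 it was 11.28 to 11.29 against 11.12 to 11.16. Neural genes summed to 11.42 to 11.50 in scramble at 0 h of the time course. The neural sum was 11.86 to 11.88 with Mettl14 knocked down and 11.87 to 11.92 with Mettl3 knocked down. In the repeat set it was 11.52 to 11.54 against 11.30 to 11.34 for Mettl14. For Mettl3 it was 11.50 to 11.55 against 11.44 to 11.51. Whether RNA of feeder, trophoblast, endoderm, mesoderm or neural cells had a part in the member values was not tested.

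**Figure D2:**
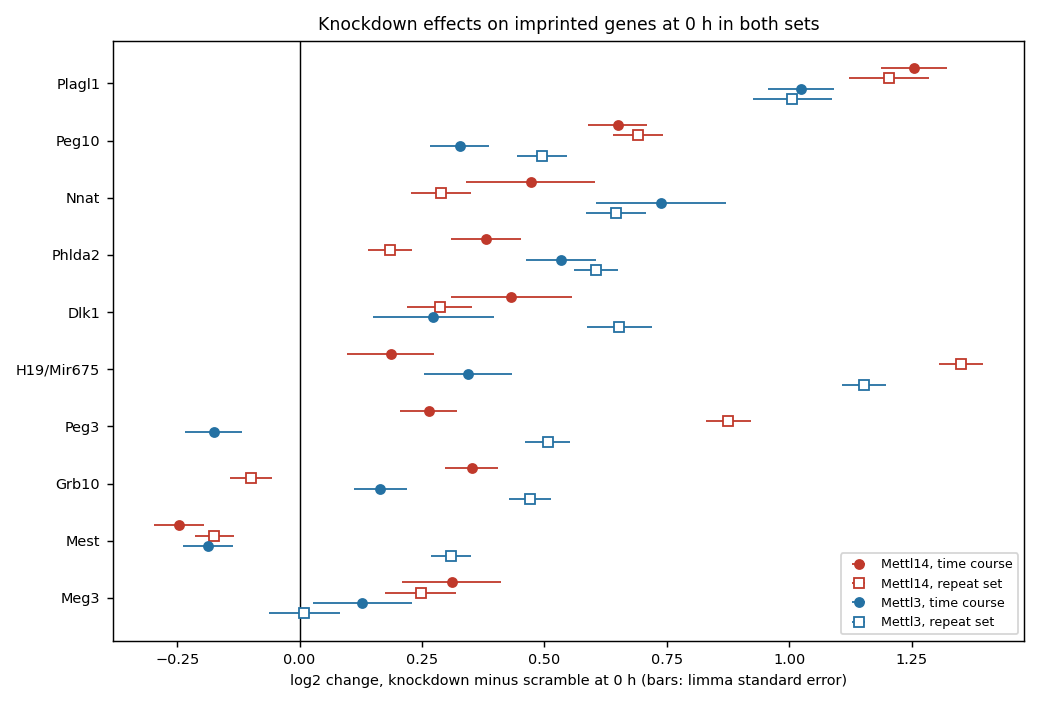
Log2 change at 0 h, knockdown minus scramble, for each imprinted gene and the H19/Mir675 probe set, with limma standard errors as bars; red is Mettl14, blue is Mettl3, filled circles are the time course and open squares the repeat set, each point from 2 arrays against 2. Plagl1 lies at 1.01 to 1.25 in all 4 comparisons, while Peg3, Grb10 and Mest each have points on both sides of 0.

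Over the time course in scramble cells, Phlda2 rose most among the members, and 7 of 9 members passed at 8 h, where 60.8% of all genes did. Its arrays read 8.83 and 8.96 at 0 h, 9.47 and 9.57 at 4 h and 9.66 and 9.73 at 8 h. Its times did not overlap, a trait not counted over all genes. It rose by 0.63 ± 0.07 at 4 h (adjusted p = 4.46e-05) and 0.80 ± 0.07 at 8 h (adjusted p = 1.75e-06), and by 0.63 and 0.80 with Mettl14 knocked down and 0.55 and 0.72 with Mettl3 knocked down. The median of all genes moved as well, by 0.13 at 4 h and 0.15 at 8 h in scramble, so at 8 h Phlda2 stood 0.66 above it. Another scaling gave every array an equal median over 33 genes listed as long-lived transcripts, such as Actb, Gapdh and Eef1a1. Their lifetimes were not measured here. With it the median of all genes became -0.05 and -0.14. Calls over all genes at 8 h went from 5799 higher and 3197 lower to 1126 higher and 5617 lower. Phlda2 still rose by 0.45 and 0.52 (adjusted p = 0.00186 and 0.000267).

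For other members the call or the direction over time depended on the scaling. Dlk1 rose by 0.51 ± 0.12 at 8 h in scramble (adjusted p = 0.00346) and Grb10 by 0.41 ± 0.05 (adjusted p = 4.48e-05), which under the equal long-lived median were 0.22 and 0.12 and did not pass (adjusted p = 0.119 and 0.154). With Mettl14 knocked down, the 8 h rise of Grb10, 0.24, turned to -0.08 under that scaling. Peg10, Mest and Peg3 rose in scramble at 8 h by 0.29, 0.21 and 0.16, and under that scaling read -0.00, -0.07 and -0.13, none of which passed. Plagl1 changed by 0.06 in scramble at 8 h (adjusted p = 0.481), by 0.27 with the arrays quantile-normalized again (adjusted p = 0.00914) and by -0.23 with the equal long-lived median (adjusted p = 0.028). Nnat changed by 0.02 in scramble at 8 h, and by 0.29 or -0.25 without replicate 1 or replicate 2 of scramble at 0 h (adjusted p = 0.0256 and 0.0466).

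With the deposited scaling Meg3, by its dimmest probe set, was the member lower at 8 h. With the equal long-lived median, Plagl1 in scramble passed as lower as well (-0.23, adjusted p = 0.028). So did Peg3 and Mest with Mettl14 knocked down (-0.22 and -0.20, adjusted p = 0.0233 and 0.0133). Meg3 fell in scramble by 0.25 (standard error 0.10, adjusted p = 0.0491), from 6.63 and 6.72 to 6.41 and 6.44, and with Mettl14 knocked down by 0.39 (adjusted p = 0.00551). With Mettl3 knocked down it changed by -0.25, which did not pass (adjusted p = 0.0536) and which without replicate 2 at 0 h was -0.40 (adjusted p = 0.00826). The scramble value did not pass without any of its 4 arrays (-0.29 to -0.20, adjusted p from 0.0744 to 0.198), while under the equal long-lived median it was -0.54 (adjusted p = 0.000798). With quantile normalization repeated, the 8 h values were -0.12 in scramble (adjusted p = 0.327) and -0.22 with Mettl14 knocked down (adjusted p = 0.0815). Of the brighter probe sets, the one for Meg3 and Mir770 fell at 8 h in scramble (-0.55, adjusted p = 0.00609). In the Mettl14 and Mettl3 knockdowns it did not pass (-0.16 and -0.21). The one for Meg3 and Mir1906 did not pass at 8 h in any treatment (0.02, 0.50 and 0.53). At 4 h it was higher with Mettl14 (0.69, adjusted p = 0.0438) and Mettl3 (0.68, adjusted p = 0.0468) knocked down.

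In scramble, 6 of 9 members passed at 4 h against 46.3% of all genes, 6 higher (32.7%) and 0 lower (13.5%), and 7 passed at 8 h against 60.8%, 6 higher (39.2%) and 1 lower (21.6%). The member medians were 0.18 and 0.21, beside 0.13 and 0.15 over all genes. With Mettl14 knocked down 8 passed at 4 h against 46.2%, 7 higher (33%) and 1 lower (13.1%), and 6 at 8 h against 56.2%, 5 higher (36.8%) and 1 lower (19.4%). With Mettl3 knocked down 5 passed at 4 h against 44.6%, 4 higher (31.5%) and 1 lower (13.1%), and 7 at 8 h against 56.1%, 7 higher (36.9%) and 0 lower (19.2%). With the equal long-lived median the counts at 4 h and 8 h were 1 and 3 in scramble, where 27.4% and 45.6% of all genes passed, 2 and 4 with Mettl14 knocked down (31.3% and 49.1%), and 2 and 2 with Mettl3 knocked down (32% and 49.9%). Between 4 h and 8 h Grb10 alone passed in scramble, where 14.9% of all genes did, 2.07% higher and 12.8% lower. That call was lost without any of its 4 arrays (0.16 to 0.21, adjusted p from 0.0831 to 0.222). From 4 h to 8 h, 0 members passed with limma with Mettl14 knocked down (7.99% of all genes, 1.19% higher and 6.8% lower), where 2 had an unadjusted p under 0.05, or with Mettl3 knocked down (7.84%, 1.4% higher and 6.44% lower), where 1 did. The 4 h counts in scramble and in both knockdowns, and the 8 h count with Mettl3 knocked down, were lower in some fits with an array left out. The share of all genes passing in those fits was not computed. Dlk1 at 4 h in scramble, 0.36, was 0.21 without replicate 1 at 0 h (adjusted p = 0.26) and 0.16 without replicate 2 at 4 h (adjusted p = 0.331). The summed feeder signal in scramble went from 11.70 to 11.73 at 0 h to 12.06 to 12.09 at 4 h and 12.13 to 12.19 at 8 h, and its part in these changes was not tested.

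**Figure D3:**
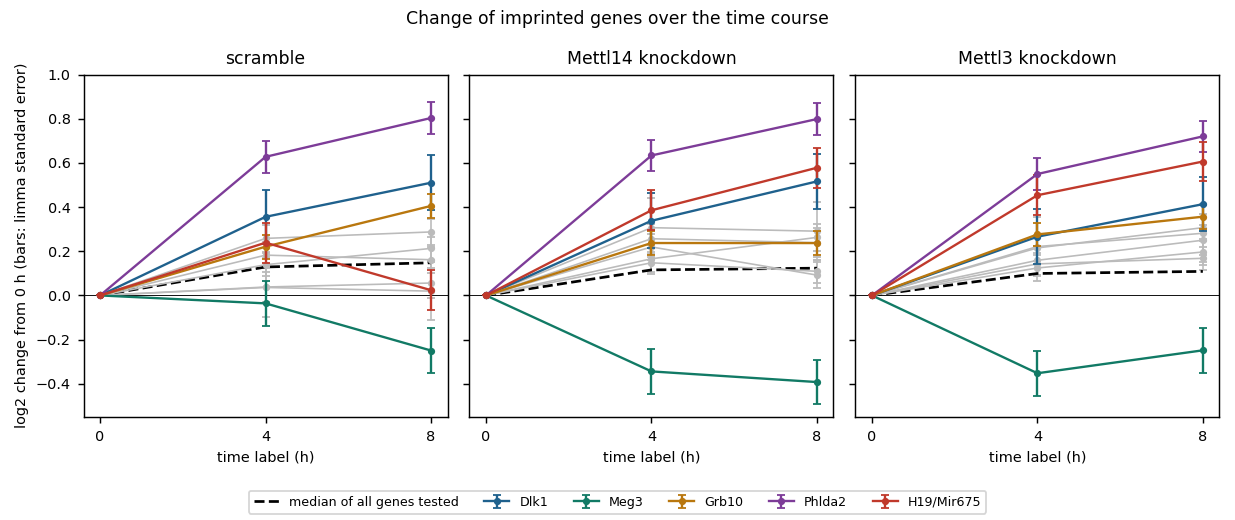
Log2 change from 0 h (vertical) at 4 h and 8 h (horizontal) in scramble, Mettl14 knockdown and Mettl3 knockdown cells, with limma standard errors, coloured for Phlda2, Dlk1, Grb10, Meg3 and H19/Mir675 and grey for the other members; the dashed line is the median of all 14787 genes. Phlda2 reaches 0.72 to 0.80 at 8 h, whereas with an equal median of long-lived transcripts Grb10 in the Mettl14 knockdown, H19/Mir675 in scramble and, in 1 or more of the panels, Peg3, Peg10, Mest, Plagl1 and Nnat turn sign.

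H19/Mir675 differed more from scramble at 8 h than at 0 h. Its 8 h change in scramble, 0.02, read -0.26 with the equal long-lived median. In scramble its arrays read 10.16 and 10.20 at 0 h, 10.42 and 10.42 at 4 h and 10.15 and 10.26 at 8 h. With Mettl14 knocked down they read 10.33 and 10.40, then 10.73 and 10.78, then 10.93 and 10.95, and with Mettl3 knocked down 10.40 and 10.65, then 10.96 and 10.997, then 11.001 and 11.26. The knockdown rise was therefore 0.74 ± 0.09 with Mettl14 at 8 h (adjusted p = 2.90e-05) and 0.93 ± 0.09 with Mettl3 (adjusted p = 4.68e-06). The 8 h change exceeded that of scramble by 0.55 ± 0.13 with Mettl14 (adjusted p = 0.0289) and by 0.58 ± 0.13 with Mettl3 (adjusted p = 0.0271). Both calls were lost with no filter on dim genes, with quantile normalization repeated and with the equal long-lived median, where adjusted p ran from 0.0517 to 0.0679, and in most fits that left out a single array (adjusted p up to 0.107 and 0.0993). Of the 9 members, 0 passed this test at 8 h with limma, where 4.99% and 3.47% of all genes did for Mettl14 and Mettl3, or at 4 h, where 0.108% and 0.0609% did. An unadjusted p under 0.05 was reached by 1 member (Grb10) at 8 h and 1 (Plagl1) at 4 h for Mettl14, and by 0 at 8 h and 1 (Meg3) at 4 h for Mettl3. Plagl1 had values of 0.18 ± 0.09 and 0.19 ± 0.09 at 8 h (adjusted p = 0.327 and 0.293).

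The sets themselves disagreed on 3 of the 9 members and on H19/Mir675. For Mettl14, the time-course effect at 0 h minus the repeat-set effect was -0.61 ± 0.07 for Peg3 (adjusted p = 2.17e-05) and 0.45 ± 0.07 for Grb10 (adjusted p = 0.000171), and 2 of 9 members passed where 16.5% of all genes did, 1 higher (7.86%) and 1 lower (8.64%). For Mettl3 it was -0.68 ± 0.07 for Peg3 (adjusted p = 1.12e-05), -0.50 ± 0.06 for Mest (adjusted p = 5.14e-05) and -0.31 ± 0.07 for Grb10 (adjusted p = 0.00718), so 3 of 9 were lower and 0 higher, where 9.81% of all genes passed, 3.66% lower and 6.15% higher. The Grb10 value for Mettl3 was -0.26 under the equal long-lived median (adjusted p = 0.083) and -0.28 without both controls noted as 4 h (adjusted p = 0.0539). H19/Mir675 differed by -1.16 ± 0.11 for Mettl14 (adjusted p = 2.03e-06) and -0.81 ± 0.11 for Mettl3 (adjusted p = 0.000151). Plagl1 effects differed by 0.05 ± 0.10 and 0.02 ± 0.10 and those of Peg10 by -0.04 ± 0.08 and -0.17 ± 0.08, none of which passed. Of the 21 feeder markers, 6 had a higher and 1 a lower Mettl14 effect in the time course than in the repeat set, with a median difference of 0.26, and for Mettl3 these were 4 and 1, with a median of 0.04. Their part in the member differences was not tested. Set and any difference in how its cells were handled cannot be told apart.

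**Figure D4:**
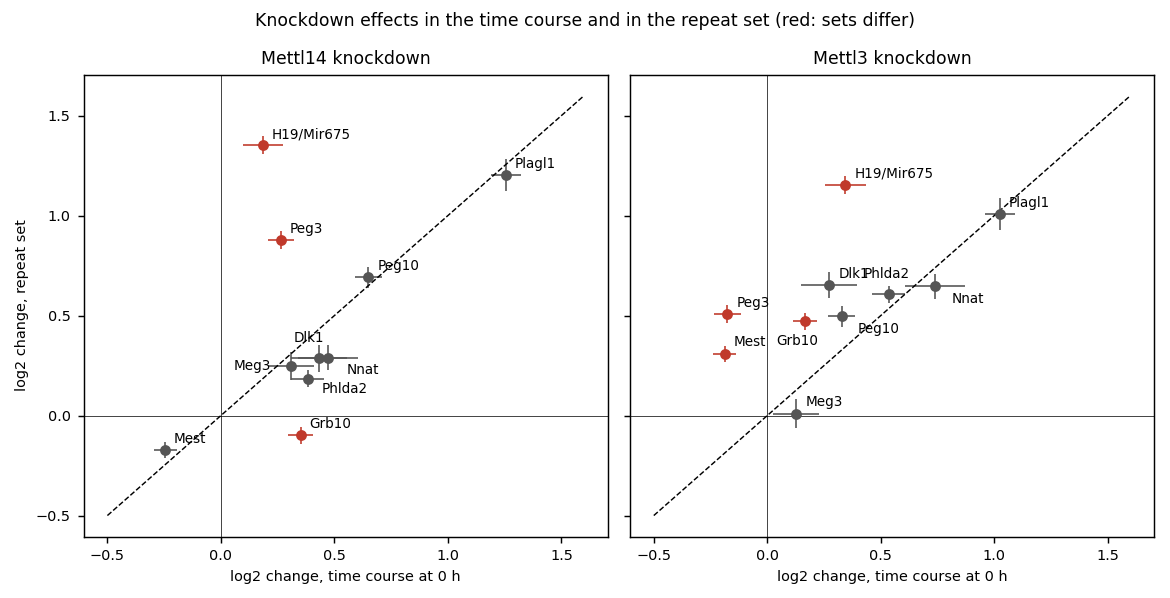
Knockdown effect at 0 h (log2) in the time course (horizontal) against the repeat set (vertical) for the imprinted genes and H19/Mir675, Mettl14 on the left and Mettl3 on the right, with limma standard errors; the dashed line marks equal effects and red points passed the test of the difference between sets. Plagl1 lies on the line in both panels, and H19/Mir675 and Peg3 lie above it.

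Mettl14 and Mettl3 knockdowns were also set against each other, a comparison added after the values were seen. At 0 h of the time course 2 of 9 members differed, where 6.07% of all genes did (2.85% higher and 3.22% lower with Mettl14): Peg3 was higher with Mettl14 by 0.44 ± 0.06 (adjusted p = 0.00119) and Peg10 by 0.32 ± 0.06 (adjusted p = 0.00881). The Peg10 difference did not pass without replicate 1 of the Mettl14 knockdown (0.30, adjusted p = 0.0568) or replicate 2 of the Mettl3 knockdown (0.24, adjusted p = 0.0754). Among repeat-set effects, each with its own control, 4 of 9 differed, 1 higher and 3 lower for Mettl14, against 3.04% of all genes, 1.54% higher and 1.5% lower. Mettl14 minus Mettl3 was 0.37 ± 0.06 for Peg3 (adjusted p = 0.0342), -0.48 ± 0.06 for Mest (adjusted p = 0.0113), -0.57 ± 0.06 for Grb10 (adjusted p = 0.0093) and -0.42 ± 0.06 for Phlda2 (adjusted p = 0.0219). Leaving out any single array of the 8 ended the call for Peg3 (0.34 to 0.40) and Phlda2 (-0.46 to -0.38), and none of the 4 passed without both controls noted as 4 h (adjusted p from 0.136 to 0.248). Peg3 is the member whose difference had the same sign and passed in both sets.

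Beyond the members, 37 of 55 other imprinted genes on a list were tested. With Mettl14, 11 were higher and 5 lower in the time course at 0 h, and 11 and 5 in the repeat set, and with Mettl3 11 and 7, then 13 and 7, beside 17.9% to 19.4% of all genes higher and 16.9% to 20.1% lower. Their median changes lay between 0.02 and 0.08, against medians of all genes within 0.01 of 0. Higher in both sets were 7 with Mettl14 (Ascl2, Gnas, H13, Igf2, Ndn, Osbpl5 and Sgce) and 10 with Mettl3, which were those 7 and Calcr, Impact and Magel2. Lower in both sets were Cobl and Ddc with either knockdown, and Copg2, Trappc9 and Sfmbt2 with Mettl3. Calcr, the calcitonin receptor gene, rose by 1.88 ± 0.07 with Mettl3 in the time course and 0.85 ± 0.06 in the repeat set. With Mettl14 it rose by 1.26 ± 0.07 in the time course and read -0.10 ± 0.06 in the repeat set, which did not pass. Kcnq1ot1, a long noncoding RNA of the cluster that holds Phlda2, fell by 2.50 on the log2 scale at 8 h in scramble, by 2.49 with Mettl14 knocked down and by 2.22 with Mettl3 knocked down, and Rian, which neighbours Meg3 in the same cluster, fell by 0.64, 0.27 and 0.38.

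Of 18 tested factors that set, keep or remove DNA methylation at imprints, 4 were higher and 7 lower with Mettl14 in the time course at 0 h and 4 and 7 in the repeat set, and with Mettl3 3 and 8, then 2 and 6, beside the same shares of all genes, 17.9% to 19.4% higher and 16.9% to 20.1% lower. Tet2, which oxidises methylated cytosine, fell with Mettl14 by 1.34 and 1.12 and with Mettl3 by 1.31 and 1.05. Trim28 fell by 0.34 and 0.21 with Mettl14 and by 0.20 and 0.20 with Mettl3. Zfp57 fell by 0.42 and 0.20 with Mettl3 and by 0.29 with Mettl14 in the repeat set, and changed by -0.31 in the time course, which did not pass (adjusted p = 0.0719). Dnmt3a fell by 0.58 and 0.34 with Mettl14 and by 0.59 and 0.34 with Mettl3, while Dnmt3b rose by 0.34 and 0.25 and by 0.38 and 0.67. Dnmt1, the maintenance methyltransferase, changed by -0.12, -0.07, -0.07 and -0.01 and did not pass in any of the 4.

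Across the 13 group means, which share the arrays' normalization and the same few conditions, members varied alike in part. Dlk1 correlated with Peg10 at r = 0.922 and with Grb10 at 0.921, and the lowest of the pairs was Mest with Nnat at -0.504. The genes whose group means ran closest to Plagl1 were Epb41l5 (r = 0.992), Ltb (0.987) and Vgll3 (0.983). For Nnat they were Cd24a (0.987), Bmp7 (0.971) and Stard10 (0.964), and for Phlda2 Rpl29 (0.977), Dlg4 (0.973) and B4galt2 (0.968). For Dlk1 they were 1700028J19Rik (0.981), Nrp1 (0.965) and Ptn (0.963), and for Meg3 Zfp445 (0.937), Cx3cr1 (0.935) and Cdc25a (0.932). Peg3 had the loosest companions, Mapk8ip3 at 0.898, Vnn1 at 0.891 and Stard4 at 0.857.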

How the data were processed

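Values were used as deposited: log2 signals per probe set on Affymetrix Mouse Gene 2.0 ST arrays. Per the submitters' processing notes the tools were RMA and oligo, with no version. RMA corrects background, equalises probe distributions and summarises probes. Whether all 26 arrays went in together is not given in the sources used here. Per the labels' protocols, polyadenylated RNA was selected before labelling. Of 41345 probe sets, 23521 were listed with 1 symbol, giving 22180 genes, each by its brightest probe set; the 7393 dimmest were left out. Tests, all two-sided, came from lmFit and eBayes, without trend, of limma 3.58.1 under R 4.3.3. They covered 14787 genes, with Benjamini-Hochberg adjustment and a threshold of 0.05. There was 1 fit for the time course (9 residual degrees of freedom), 1 for the repeat set (4) and 1 for all arrays (13), used between sets. The fits were tested on simulated data. Values after ± are limma standard errors of a log2 difference between groups of 2 arrays, whose number limits the precision. H19/Mir675, other shared probe sets and each gene's further probe sets were fitted as added features. Members and lists were chosen with earlier results of these data known. Named were the members, the targeted genes, up to 4 list genes with the smallest adjusted p in a comparison, other imprinted genes passing in both sets, and the 3 genes closest to each member over group means; genes beside a member in RefSeq's order, Dnmt1, Col1a2, Col3a1, Nanog, Sox2 and the marker genes below the filter were named besides, after their values were seen. Alternatives were other filters, scalings, variance settings and array choices.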

Additional observations from a re-analysis of the deposited data

Results flagged for a closer look

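Values are given with no explanation. The change of H19/Mir675 from 0 h to 8 h differed between knockdown and scramble cells, by 0.55 ± 0.13 for Mettl14 and 0.58 ± 0.13 for Mettl3. Both calls were lost with no filter on dim genes, with quantile normalization repeated and with the equal long-lived median. The effect at 0 h of the time course minus that of the repeat set differed from 0 for Mettl14 in Peg3 (-0.61 ± 0.07), Grb10 (0.45 ± 0.07) and H19/Mir675 (-1.16 ± 0.11). For Mettl3 it did so in Peg3 (-0.68 ± 0.07), Mest (-0.50 ± 0.06), Grb10 (-0.31 ± 0.07) and H19/Mir675 (-0.81 ± 0.11). The signs of the Grb10 differences are opposite for Mettl14 and Mettl3. The knockdowns themselves differed, Mettl14 minus Mettl3, at 0 h of the time course in Peg3 (0.44 ± 0.06) and Peg10 (0.32 ± 0.06). Their repeat-set effects differed in Peg3 (0.37 ± 0.06), Mest (-0.48 ± 0.06), Grb10 (-0.57 ± 0.06) and Phlda2 (-0.42 ± 0.06). All of these came from limma tests of the difference itself, and the last 2 comparisons were added after the values were seen. The Grb10 call between sets for Mettl3 was lost with the equal long-lived median. The direct Peg10 difference and the repeat-set differences of Peg3 and Phlda2 were not kept in fits with single arrays left out. No repeat-set difference between the knockdowns passed without both controls noted as 4 h.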

How the results depend on the processing

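Of 3583 member values under alternatives, 3292 kept their side of the threshold with no called value turning sign, 234 lost a call, 39 gained a call and 18 that passed before or after turned sign; the cause was not tested. A further 128 values changed sign without passing in either fit, 26 of them with the equal median of long-lived transcripts. The knockdown rises of Peg10 kept their calls in all alternatives run, and so did those of Plagl1, which had no value when probe sets of a gene were averaged. The larger changes in the counts of members that passed follow, and smaller ones are left out. For fits with arrays left out or pooled, or with other filters or variance settings, the share of all genes passing was not computed. There a general change in calls cannot be told apart from one in the members. For Mettl14 in the repeat set, 8 became 5 in a single fit of all 26 arrays, 3 without both controls noted as 4 h, and 4 to 6 with an array left out. For Mettl3 at 0 h of the time course, 7 became 4 with only the 6 arrays at 0 h and 4 to 7 with an array left out. For Mettl14 at 8 h, 8 became 5 to 7 with an array left out. With an equal median of long-lived transcripts, the counts over time were 1 at 4 h and 3 at 8 h in scramble, 2 at 4 h and 4 at 8 h with Mettl14 knocked down, and 2 at 4 h and 2 at 8 h with Mettl3 knocked down. The change from 0 h to 4 h with Mettl14 knocked down gave 5 with no filter on dim genes, 5 with quantile normalization repeated and 3 to 4 with an array left out. Leaving out an array gave 3 to 5 for scramble at 4 h, 3 to 4 and 3 to 7 for Mettl3 knockdown at 4 h and 8 h, and 0 to 1 for the 8 h change of Mettl14 minus that of scramble. Scramble from 4 h to 8 h gave 0 with no filter and 0 with any array left out. The controls of the repeat set differed in 1 member, not 0, with trend and robust settings and in 1 in the fit of all 26 arrays. The direct difference at 0 h of the time course gave 0 with only the 6 arrays at 0 h and 1 to 3 with an array left out, and the repeat-set difference gave 1 with no filter, 0 without both controls noted as 4 h and 1 to 2 with an array left out. With H19/Mir675 counted as a member, the 8 h change minus that of scramble gave 1 for Mettl14 and 1 for Mettl3.

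With the equal long-lived median, these values that passed with one of the scalings turned sign. In scramble Mest at 4 h became -0.043, and at 8 h Peg3 became -0.13, Peg10 -0.00034, Mest -0.075, Plagl1 -0.23 and H19/Mir675 -0.26. With Mettl14 knocked down Peg10 became -0.043 and Mest -0.061 at 4 h, and Peg3 -0.22, Peg10 -0.049, Mest -0.20, Grb10 -0.075 and Plagl1 -0.073 at 8 h. With Mettl3 knocked down Mest became -0.065 at 4 h, and Peg3 -0.094, Mest -0.12 and Plagl1 -0.041 at 8 h. Among those that passed with neither, Nnat became -0.15 at 4 h and -0.27 at 8 h in scramble, and -0.021 and -0.0095 at 8 h with Mettl14 and Mettl3 knocked down, Plagl1 -0.14 at 4 h in scramble and -0.048 with Mettl3 knocked down, and Peg3 -0.083 at 4 h with Mettl3 knocked down. The 8 h change of Nnat in scramble ran from -0.25 to 0.29 with an array left out, the lowest without replicate 2 and the highest without replicate 1 at 0 h. Replicate numbers were not treated as pairs in the main fits. Over 36 pairs of time-course groups the correlation of same-numbered deviations ran from -0.44 to 0.34, with a median of 0.03. Over 6 repeat-set pairs it ran from -0.048 to 0.043. Whether same-numbered arrays of a treatment belong together over time was not modelled. With a replicate block, 2 members passed in scramble from 4 h to 8 h instead of 1, and of 270 member values 3 lost and 2 gained a call.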
